A study of Homo sapiens with 16 samples.

Results

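The malignant cells of the mouse mammary tumor models T22 and T127 were compared gene by gene inside the 8 pools of the long-term experiment. The comparison asks how the malignant cells of T22, which the study describes as sensitive to PARP inhibition when transplanted alone, differ in their transcripts from those of T127, described as resistant. The pools also hold co-transplanted T22 tumors, which the study describes as made resistant to olaparib. The T22 sums are thus not sums of responding tumors alone. In each pool the raw molecule counts (UMIs, unique molecular identifiers) of the cells that the authors assigned to the clusters Malign_2 and Malign_3 were summed for T22, and those of Malign_0 and Malign_1 for T127. This gave 6862 malignant cells of 53946 cells in the series, 2259 of T22 (1352 in Malign_2 and 907 in Malign_3) and 4603 of T127 (2809 in Malign_0 and 1794 in Malign_1). They were 26.7% of the 25723 long-term cells, with each barcode counted once.

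Both models are murine-derived syngeneic transplants that come from mice with a transgene for the lysophosphatidic acid receptor LPA1 in the mammary epithelium, so every group shares that transgene. Each model is a single transplant line, and 2 lines cannot stand for sensitive and resistant tumors in general. Tumor pieces were placed in the mammary fat pads of female FVB mice aged 6 weeks, either of 1 model alone (single strain) or of both models on opposite sides of a mouse (co-transplantation), with T22 placed earlier than T127. The mice received vehicle or olaparib, a PARP inhibitor, at 50 mg/kg daily by mouth for 20 days. By their labels the long-term pools hold tagged tumors of both models, both settings and both treatments, and cells of both models were found in each pool. The study lists 4 olaparib and 2 vehicle tumors for each model and setting, with more cells in total from the olaparib tumors. How these tumors were divided among the pools is not given in the sources used here, nor are the malignant cells of each tumor. The values below are thus averages over both treatments and both settings, in shares that are not known for each pool. A pool is a capture and not a tumor, and the p-values measure the spread between these captures, which may be technical. In a separate short-term experiment, with olaparib or vehicle for 4 or 8 days, 4 pools held T22 tumors and 4 held T127 tumors by their labels. GEO's labels give human as the organism, whereas the gene symbols and the genome build are those of mouse.

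The mammary epithelium is a bilayer of luminal cells, which make milk proteins and carry simple keratins and tight junctions, and of basal or myoepithelial cells, which contract and express Krt5, Krt14 and smooth muscle genes under the regulator Trp63. Carcinoma cells can leave this program through epithelial-mesenchymal transition, in which factors such as Snai1, Twist1 and Zeb1 repress junction genes and vimentin, fibronectin and other mesenchymal proteins are made. PARP1 binds broken DNA and marks it with poly(ADP-ribose), PARP inhibitors trap it there, and homologous recombination (Brca1, Brca2) repairs the resulting breaks, while the efflux pump P-glycoprotein, encoded in the mouse by Abcb1a and Abcb1b, exports olaparib from cells.

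Per pool there were 223 to 352 T22 cells and 456 to 701 T127 cells, with a median of 14242.5 to 16821 UMIs per T22 cell and 17967 to 23130 UMIs per T127 cell. Pools 1 and 2 shared 3939 barcodes, pools 1 and 3 shared 987 and pools 2 and 3 shared 1082. Only the deepest copy of a shared barcode was kept, which left out 111 of 6973 malignant cells, and 1 barcode was named T22 in a pool and T127 in another. Pools 5 to 8 differed from pools 1 to 4 in both models. Malign_1 made up 47.4 to 51.4% of T127 cells in pools 1 to 4 and 23.9 to 27.3% in pools 5 to 8, and Malign_3 made up 34.3 to 37.9% and 41.7 to 49.2% of T22 cells. Mitochondrial UMIs were 0.870 to 0.910% of T22 UMIs in pools 1 to 4 and 1.31 to 1.47% in pools 5 to 8, against 0.954 to 1.06% and 1.35 to 1.51% in T127.

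Levels are given as CPM, the UMIs of a gene per 1000000 UMIs of the model's cells in a pool, as the lowest, the highest and the median of the 8 pools. Because a level is a sum over cells, more cells with a gene and more RNA of it per cell cannot be told apart. A difference is the log2 ratio of T22 to T127 from the paired fit (n = 8 pools), positive where T22 was higher. The value after ± is the size of the difference divided by the square root of its F statistic. It is an approximate standard error. It can understate the error of counting where a model had few UMIs, as for Ly6k with 6 UMIs in T127. A gene was called where its Benjamini-Hochberg adjusted p over all genes tested was under 0.05 and the difference was at least 2-fold. The clusters were named by the authors on the expression of these cells, so a difference of a gene that helped to separate the clusters is not independent evidence.

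The fixed marker genes matched the labelled cell types in part. Markers of immune cells summed to 74.5 to 187 CPM in T22 and 60.5 to 91.4 CPM in T127, against 16442 CPM in immune cells, and endothelial markers summed to at most 2.91 and 3.25 CPM, against 2145 CPM in endothelial cells. Among fibroblast and pericyte markers, Mfap5 reached at most 10.6 CPM (3408 CPM in fibroblasts), while Serpinf1 lay at 494 to 926 CPM in T22 and 89.7 to 122 CPM in T127 and at 1550 CPM in fibroblasts. Of the epithelial markers, Epcam was present at 1527 to 1749 CPM in T22 but at 1.45 to 7.93 CPM in T127, and Cdh1 at 0.171 to 1.07 CPM in T127. The simple keratins Krt8 and Krt18, in contrast, were present in both models, at 513 to 774 and 453 to 653 CPM in T127.

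A large share of the genes tested was called as different between the models. Of 11846 genes tested, 2621 (22.1%) were higher in T22 and 2324 (19.6%) were higher in T127, so that 4945 (41.7%) were called in either direction (edgeR's quasi-likelihood test). Without the requirement on fold, 10248 genes (86.5%) passed the adjusted p. Without pools 1 to 3, which share barcodes, 2676 and 2368 genes were called, and in pools 1 to 4 alone 2774 and 2497, in pools 5 to 8 alone 2717 and 2350. The pool values of the models did not overlap for 7222 genes (61.0%). At 16-fold or more there were 991 genes higher in T22 and 420 higher in T127. The median difference over all genes was 0.01 on the log2 scale. In a fit of the 4 clusters, 1729 of 11195 genes (15.4%) were higher in each T22 cluster than in either cluster of T127, and 1471 (13.1%) were lower. Every count of list members below is to be read against these shares.

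Of the 15 genes highest in T22 relative to T127, Cldn3, Wfdc18, Tspan8, Csn3 and Krt15 were members of the epithelial, luminal or basal lists. The 15 largest differences among genes that were called in every pair of clusters and reached 50 CPM in every T22 pool spanned log2 8.71 to 9.69. The largest was Ly6k, which encodes a membrane-anchored protein of the Ly6 family and lay at 53.3 to 66.1 CPM in T22 (median 62.2) and 0 to 0.160 CPM in T127 (median 0.0739), a difference of 9.69 ± 0.144 (adjusted p = 2.08e-15). Sostdc1, a secreted antagonist of BMP and Wnt signals, lay at 228 to 359.9 CPM in T22 (median 312) and 0.171 to 0.608 CPM in T127 (median 0.369), a difference of 9.51 ± 0.0973. The whey acidic protein family gene Wfdc18 took up a large share of the T22 transcriptome, at 16234 to 23720.0 CPM in T22 (median 20212) and 24.2 to 65.3 CPM in T127 (median 38.2), a difference of 9.01 ± 0.162. The pools of the models did not overlap for these genes, which their choice fixes. The others were Egfl6, Dsc3 (a desmosomal cadherin), Pawr (a pro-apoptotic regulator), Barx2 (a homeobox factor), Cxcl17, Tspan8, Csn3 (kappa-casein), Cldn3 (a tight junction claudin), Igfbp2, Ecrg4, Lgalsl and Krt15.

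These genes were not spread evenly over the T22 clusters. Ecrg4 lay at 11158 CPM in Malign_2 and 363 CPM in Malign_3, Igfbp2 at 1336 and 19.5 CPM, and Dsc3 at 132 and 1.77 CPM. The reverse held for Barx2 (7.95 CPM in Malign_2 and 305 CPM in Malign_3), Cxcl17 (6.67 and 389 CPM) and Cldn3 (39.8 and 1058 CPM). Wfdc18 was abundant in both, at 10772 and 34126 CPM. Values of single clusters are descriptions without a test of one T22 cluster against the other, since the clusters were made from these genes.

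Genes highest in T127 relative to T22 included Prrx1 and Twist1 of the mesenchymal list, Hmga2 of the oncofetal list, and Bglap, Bglap2 and Spp1. The 15 largest differences among genes that were called in every pair of clusters and reached 50 CPM in every T127 pool ran from log2 -6.59 to -7.20. Bglap, one of the osteocalcin genes, lay at 0 to 1.56 CPM in T22 (median 0.421) and 74.0 to 125 CPM in T127 (median 104), a difference of -7.20 ± 0.179 (adjusted p = 1.83e-13). Its neighbouring copy Bglap2 gave -6.87 ± 0.222, and reads may be shared between these near-identical genes. Bmp2, a bone morphogenetic protein, lay at 0.180 to 4.04 CPM in T22 (median 0.671) and 107 to 213 CPM in T127 (median 148), a difference of -7.02 ± 0.216. Spp1, which encodes osteopontin, lay at 28.2 to 313 CPM in T22 (median 57.4) and 7559.7 to 11035 CPM in T127 (median 9636), a difference of -6.89 ± 0.466. Hmga2, an architectural chromatin protein of embryonic tissue, lay at 3.35 to 23.003 CPM in T22 (median 11.6) and 959 to 1277 CPM in T127 (median 1119), a difference of -6.59 ± 0.217. As for the genes above, the lack of overlap of the pools follows from their choice. The remaining genes were Nrn1, Prkg2 (a cGMP-dependent kinase), the mesenchymal homeobox factor Prrx1, Slurp1, Ereg, the Wnt antagonist Dkk2, the sulfotransferase gene Chst1, Rgs17, Twist1 and the procollagen enhancer Pcolce2.

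Slurp1 split the T127 pools, with 557 to 718 CPM in pools 1 to 4 and 174 to 213 CPM in pools 5 to 8, while no T22 pool exceeded 9.36 CPM. Bmp2 and Ereg were higher in Malign_1 (258 and 456 CPM) than in Malign_0 (85.2 and 131 CPM). Hmga2, Spp1 and Twist1 lay at nearly the same level in both T127 clusters, with 1105 and 1121 CPM for Hmga2 and 299 and 283 CPM for Twist1.

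**Figure D1:**
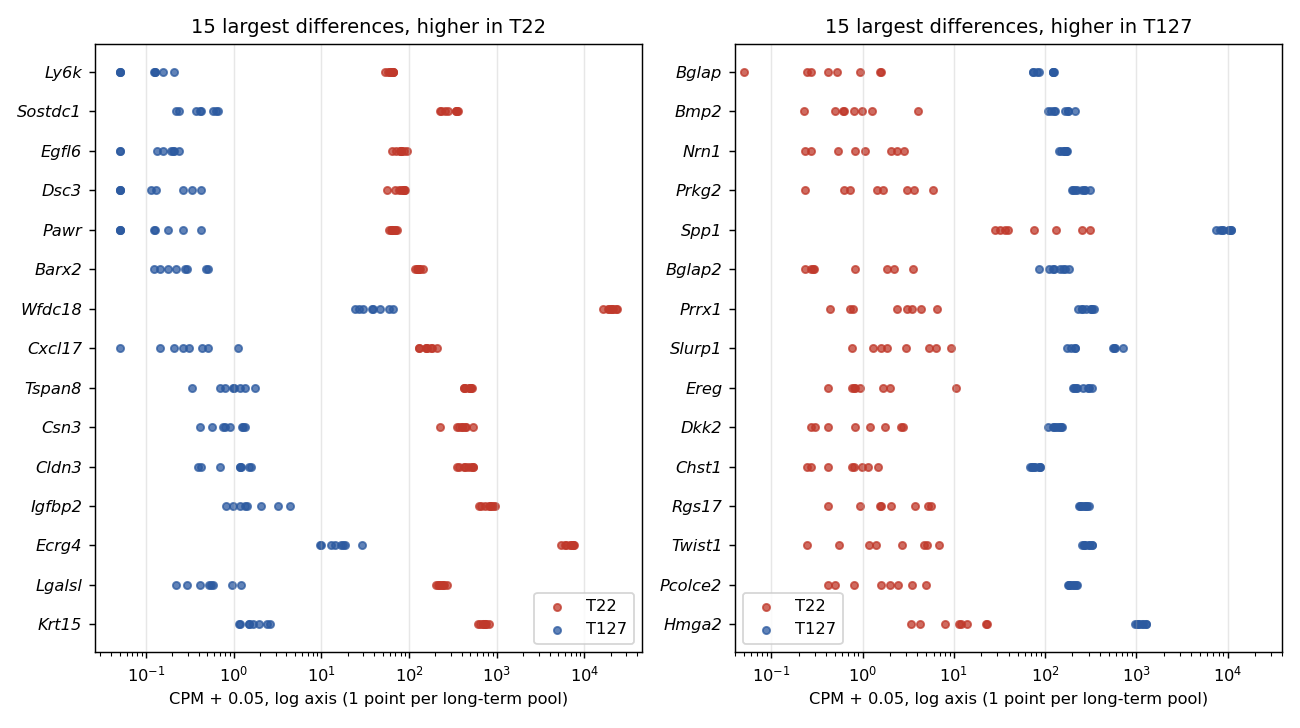
Level in each long-term pool of the 15 genes with the largest difference in each direction, as CPM + 0.05 on a log axis, with 1 point per pool and model (red T22, blue T127). The genes were chosen among those called in every pair of clusters and at 50 CPM or more in every pool of the higher model. In every row the 8 red and the 8 blue points are apart, as for Ly6k, with 53.3 to 66.1 CPM in T22 and at most 0.160 CPM in T127.

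The level in the lower model was close to background for most of these genes. Droplets carry free RNA, so the lymphocytes of the same pools, which should lack epithelial transcripts, were used as a reference. The level in T127 was at or under that in lymphocytes for 15 of the 15 T22 genes, with a median of 0.529 CPM against 3.75 CPM, and the level in T22 was at or under it for 14 of the 15 T127 genes. Over all called genes, this held for 1848 of 2621 genes higher in T22 and 1416 of 2324 genes higher in T127. Lymphocytes express some of these genes themselves, such as Psmb9 (367 CPM, against 15.4 CPM in T127). The count over all called genes is therefore no measure of background. For the 15 genes of each direction, the choice of the largest differences favours a low level in the other model. In the short-term pools, where the models were captured separately, the T127 level of the T22 genes was lower still, with a median of 0.0114 CPM and 0 UMIs for 5 of them. The T22 level of the T127 genes had a median of 1.96 CPM long-term and 0.0567 CPM short-term, with 0 UMIs for 4. The size of such a log2 difference thus rests on a value near background, whose source was not tested.

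Epithelial junction and simple keratin genes were higher in T22 with few exceptions. Of 22 genes tested, 21 were higher in T22, none was higher in T127, and Krt8 was not called. The median difference of the list was 7.25, against 0.01 for all genes. Epcam, an epithelial adhesion molecule, lay at 1527 to 1749 CPM in T22 (median 1705) and 1.45 to 7.93 CPM in T127 (median 3.93), a difference of 8.64 ± 0.210. Cldn3 and Cldn4 gave 8.81 ± 0.127 and 7.80 ± 0.114, Cdh1 (E-cadherin) 7.06 ± 0.103, and Krt7 8.63 ± 0.150. The levels of Epcam and Cdh1 did not overlap between the models in any pool. The regulators of the epithelial program were also higher in T22. The splicing factors Esrp1 and Esrp2 differed by 7.54 ± 0.124 and 6.34 ± 0.314, and the transcription factors Grhl2 and Ehf by 7.93 ± 0.210 and 8.61 ± 0.137. In the 4-cluster fit, 17 of the 22 genes were higher in both T22 clusters.

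Krt8 and Krt18, the keratins of simple epithelia, did not follow the rest. Krt8 lay at 731 to 1155 CPM in T22 (median 926) and 513 to 774 CPM in T127 (median 634), a difference of 0.57 ± 0.0453, with overlapping pools. Krt18 was called, at 1075 to 1432 CPM in T22 (median 1283) and 453 to 653 CPM in T127 (median 555), a difference of 1.17 ± 0.0498 (adjusted p = 4.44e-11). Within T22 it lay at 87.5 CPM in Malign_2 and 3022 CPM in Malign_3, and the T127 clusters at 597 and 499 CPM stood between them. When both clusters of a model were given equal weight, the difference of Krt18 turned to -0.08 and was no longer called. The study reports the claudin Cldn1 as higher in Malign_2 and in Malign_3 than in the T127 clusters. In the sums per model its pools overlapped (10.1 to 17.8 CPM in T22 and 12.3 to 16.7 CPM in T127, a difference of 0.00 ± 0.0765). It lay at 28.6 CPM in Malign_3 and 5.57 CPM in Malign_2, and the T127 clusters Malign_0 and Malign_1 had 17.3 and 11.1 CPM. In these sums Malign_3 was thus above both T127 clusters and Malign_2 below both.

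Luminal and milk genes were higher in T22 for 12 of the 13 genes tested, with a median difference of 7.82. The milk genes Csn2 and Csn3 (beta- and kappa-casein) gave 8.50 ± 0.165 and 8.87 ± 0.110, and lactotransferrin (Ltf) 8.15 ± 0.119. Csn2 varied strongly between T22 pools, at 11.2 to 203 CPM in T22 (median 30.2) and 0 to 0.321 CPM in T127 (median 0.118). Kit, a receptor of luminal progenitors, lay at 44.3 to 116 CPM in T22 (median 69.3) and 0 to 0.836 CPM in T127 (median 0.441), with 172 CPM in Malign_3 and 2.68 CPM in Malign_2. Elf5, the regulator of alveolar differentiation, had a single UMI in T127 against 215 in T22, so no fold is given. The exception was Gata3, a luminal transcription factor, at 6.82 to 20.1 CPM in T22 (median 8.33) and 45.4 to 59.4 CPM in T127 (median 55.9), a difference of -2.44 ± 0.127 with no overlap. Wap, Lalba, Foxa1, Esr1 and Pgr were too low to be tested.

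Basal and myoepithelial genes formed the third group with large differences toward T22. Of 20 genes tested, 17 were higher in T22, Procr and Ngfr were higher in T127, and Itgb4 was not called (difference -0.97 ± 0.0573), although it was called as higher in T127 without pool 1 (-1.03), without pool 4 (-1.01) and in pools 5 to 8 (-1.12). The median was 8.11, or 7.64 with Oxtr, which had 0 UMIs in T127, set at its bound of an at least 148-fold higher level in T22 (against 3 UMIs over all pools). It was 4.91 when both clusters of a model had equal weight. Krt14 lay at 1265 to 1565 CPM in T22 (median 1395) and 3.07 to 6.42 CPM in T127 (median 5.16), a difference of 8.16 ± 0.0867, and Acta2 (smooth muscle actin) at 2789 to 6124 CPM in T22 (median 4331) and 5.82 to 22.6 CPM in T127 (median 9.24), a difference of 8.69 ± 0.258. Mia, a secreted protein gene with a large T22 level, lay at 2163 to 2345 CPM in T22 and 2.31 to 15.4 CPM in T127 (8.62 ± 0.251). Trp63, the basal regulator, lay at 47.0 to 58.7 CPM in T22 (median 53.0) and 0.152 to 0.640 CPM in T127 (median 0.503), a difference of 6.79 ± 0.115. All of these were at or below 22.6 CPM in every T127 pool. Only 7 of the 20 genes were higher in both T22 clusters. Malign_3 had low levels of Acta2, Trp63 and Krt5. Acta2 lay at 22.7 CPM there and 7275 CPM in Malign_2, Trp63 at 0.697 and 87.2 CPM, and Krt5 at 3.10 and 916 CPM. Krt14 was present in both, at 927 and 1734 CPM.

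Of 13 mesenchymal genes and regulators tested, 10 were higher in T127 and 3 were higher in T22, with a median of -3.69 that was -5.13 with equal weight of the clusters. Twist1 lay at 0.195 to 6.81 CPM in T22 (median 2.00) and 254 to 325 CPM in T127 (median 287), a difference of -6.69 ± 0.228. Zeb1 lay at 0.186 to 1.75 CPM in T22 (median 0.880) and 36.8 to 51.9 CPM in T127 (median 45.2), a difference of -5.52 ± 0.157, and Snai1 at 0.672 to 3.29 CPM in T22 (median 1.57) and 72.0 to 96.6 CPM in T127 (median 86.5), a difference of -5.55 ± 0.152. These transcription factors, which repress epithelial genes, were at or under 6.81 CPM in every T22 pool and at or above 36.8 CPM in every T127 pool. Vim (vimentin) lay at 801 to 1103 CPM in T22 (median 949.6) and 8521 to 10412 CPM in T127 (median 9583), a difference of -3.34 ± 0.0575, and Fn1 (fibronectin) and S100a4 gave -6.13 ± 0.227 and -6.11 ± 0.289. The 3 genes in the other direction were Snai2 (3.34 ± 0.0706), Sparc (2.40 ± 0.0534) and Pdpn (7.91 ± 0.109), which encode a further repressor of epithelial genes, a matrix-binding protein and podoplanin. They were mainly transcripts of Malign_2, where Snai2 lay at 77.4 CPM against 0.950 CPM in Malign_3, and Sparc at 4836 against 369 CPM.

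Collagens and other matrix genes did not move one way. Among 19 tested, 11 were higher in T22, 5 were higher in T127 and 3 (Col1a1, Col3a1 and Fbn1) were not called. The list median of 1.14 was 0.40 with equal weight of the clusters. The basement membrane collagens Col4a1 and Col4a2 differed by 3.39 ± 0.106 and 3.06 ± 0.130, with Col4a1 at 433 to 576 CPM in T22 and 35.8 to 59.0 CPM in T127, and Col9a3 by 7.77 ± 0.103. The microfibrillar collagens Col6a1, Col6a2 and Col6a3 differed in the opposite direction by -4.11 ± 0.154, -2.47 ± 0.197 and -4.13 ± 0.387. Dcn, the small proteoglycan decorin, lay at 436 to 548 CPM in T22 (median 458) and 3958 to 4694 CPM in T127 (median 4286), a difference of -3.16 ± 0.0432, whereas its relative Bgn (biglycan) differed by 5.87 ± 0.166. The secreted glycoprotein gene Thbs1 lay at 55.3 to 99.3 CPM in T22 and 1.36 to 4.06 CPM in T127, a difference of 5.01 ± 0.0894. The fibrillar collagen gene Col1a1 was low in both models, at 0.895 to 19.7 CPM in T22 and 1.23 to 11.5 CPM in T127, against 5517 CPM in the inflammatory fibroblasts of the same pools.

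**Figure D2:**
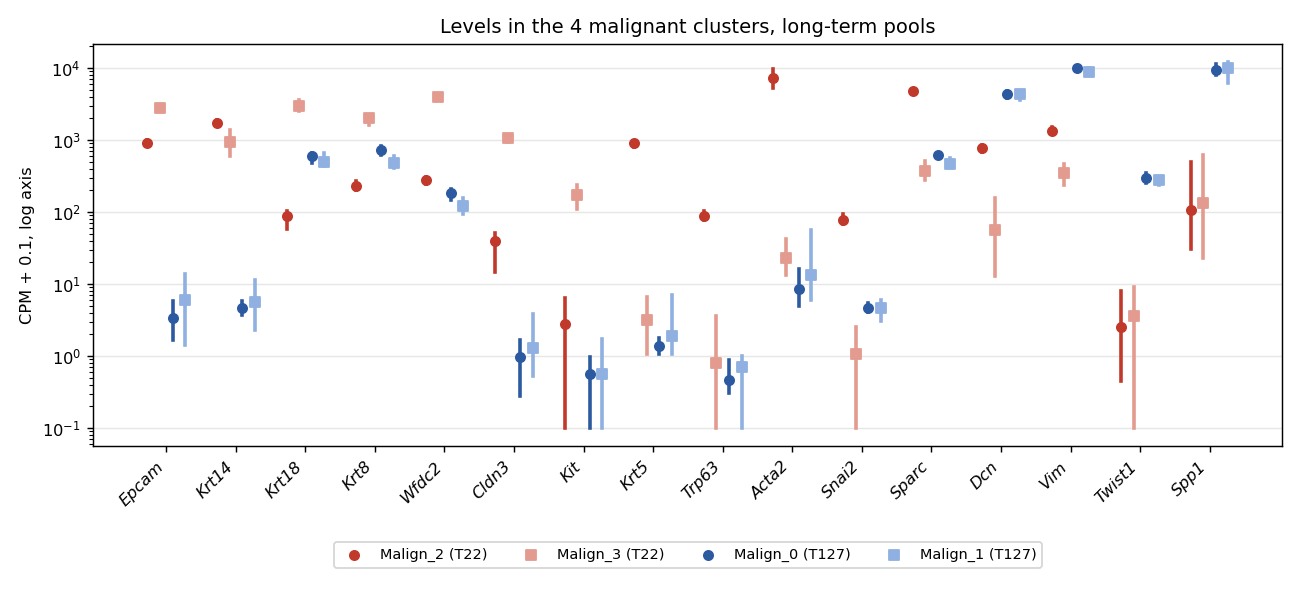
Level of 16 epithelial, basal and mesenchymal genes in the 4 malignant clusters of the long-term pools, as CPM + 0.1 on a log axis, where a point is the level summed over the pools and a line runs from the lowest to the highest pool. Acta2, Krt5 and Trp63 are high in Malign_2 alone, Krt18 and Krt8 are highest in Malign_3 and intermediate in T127, and Twist1, Vim and Spp1 are high in both T127 clusters.

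Counts assigned to the mouse gene Lpar1 were low in both models, which carry a transgene for the receptor LPA1. Whether these counts include reads of the transgene was not examined, so they are no measure of its level. Lpar1 lay at 30.5 to 68.7 CPM in T22 (median 40.8) and 15.05 to 21.9 CPM in T127 (median 19.7), a difference of 1.14 ± 0.137 (adjusted p = 2.94e-06). Without pool 1, whose T22 level was the highest, the difference was 0.975, and in pools 5 to 8 it was 0.763, under the 2-fold limit. In the short-term pools the order was opposite, with 5.49 to 17.9 CPM in T22 and 39.3 to 44.2 CPM in T127. The inflammatory fibroblasts of the long-term pools had 168 CPM. Among the other genes of lysophosphatidic acid signalling, the receptor Lpar6 was higher in T22 (3.06 ± 0.112), and the receptor Lpar3 and the phosphatase Plpp3, which degrades the lipid outside the cell, were higher in T127 (-3.95 ± 0.325 and -1.45 ± 0.0439). Lpar2, Plpp1 and Plpp2 were not called, and the median of the 7 genes was -0.15. Without the 5% of cells with the most UMIs in each pool only 5 of these genes were tested, with a median of 0.93. Lpar4, Lpar5 and Enpp2, the gene of the enzyme that makes lysophosphatidic acid, were too low to be tested.

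Genes of PARP and of homologous recombination were mostly low in both models. Of 24 genes tested, 6 were higher in T22, which is near the share of 22.1% over all genes tested. None was higher in T127 (19.6% over all genes) and 18 were not called, with a median of 0.53. In the short-term pools, 4 of the 6 genes were at least 2-fold apart in the same direction. Parp1, whose product olaparib traps on DNA, lay at 10.9 to 19.9 CPM in T22 (median 14.7) and 3.17 to 6.63 CPM in T127 (median 4.73), a difference of 1.59 ± 0.107 (adjusted p = 6.33e-09). It was higher in every T22 pool than in every T127 pool. Others called were the helicase Blm (1.43 ± 0.108), Nbn of the break-sensing MRN complex (1.36 ± 0.0800) and Bard1, the partner of Brca1 (1.34 ± 0.194). Parp2 and the glycohydrolase Parg, which removes poly(ADP-ribose), gave 0.55 ± 0.0426 and -0.34 ± 0.103, and Rad50, nearest to 0 of the list, 0.09 ± 0.0341.

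Brca1 and Brca2 were low in both models, at 2.78 to 6.04 CPM in T22 and 1.605 to 4.24 CPM in T127 for Brca1 and 2.78 to 8.82 CPM in T22 and 2.50 to 4.56 CPM in T127 for Brca2, with differences of 0.52 ± 0.201 and 0.80 ± 0.160 and overlapping pools. When the 5% of cells with the most UMIs in each pool were left out, a step that removed 245 T22 cells (10.8%) and 1127 T127 cells (24.5%), these differences were 1.79 and 1.09. With equal weight of the clusters Brca2 was called at 1.04. Genes whose loss can restore recombination in BRCA-deficient cells did not pass the fold limit. Trp53bp1 gave -0.17 ± 0.103, Rif1 -0.24 ± 0.0577, Mad2l2 (REV7) -0.75 ± 0.0835, Shld1 -0.37 ± 0.113 and Shld2 0.82 ± 0.133, the last 2 being shieldin subunits. Palb2, Xrcc3, Shld3, Fanca and Fancd2 were too low to be tested.

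The drug efflux pumps Abcb1a and Abcb1b were higher in T127 by large folds. Abcb1a lay at 0 to 1.21 CPM in T22 (median 0.647) and 46.1 to 66.1 CPM in T127 (median 54.3), a difference of -6.39 ± 0.169 (adjusted p = 3.34e-13). Abcb1b lay at 2.88 to 7.02 CPM in T22 (median 3.74) and 66.8 to 114 CPM in T127 (median 89.2), a difference of -4.47 ± 0.0740 (adjusted p = 4.64e-15). Every T127 pool exceeded every T22 pool for both, and the pools of the models did not overlap for 61.0% of all genes tested. These paralogs may share reads, which the lack of overlap cannot tell. In T127 they were found in both clusters, with Abcb1a at 48.6 CPM in Malign_0 and 61.8 CPM in Malign_1, and lymphocytes of the same pools had 20.4 CPM. Abcc5 was also higher in T127 (-2.26 ± 0.114), and Abcc1 gave -0.83 ± 0.0671. Abcg2, which exports many drugs, was higher in T22 by 4.23 ± 0.333 at 2.53 to 3.58 CPM in T22 and 0 to 0.454 CPM in T127, and Abcc3 by 6.46 ± 0.129, almost wholly from Malign_3 (108 CPM against 0.893 CPM in Malign_2). In total 2 of 6 pumps tested were higher in T22 and 3 were higher in T127.

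**Figure D3:**
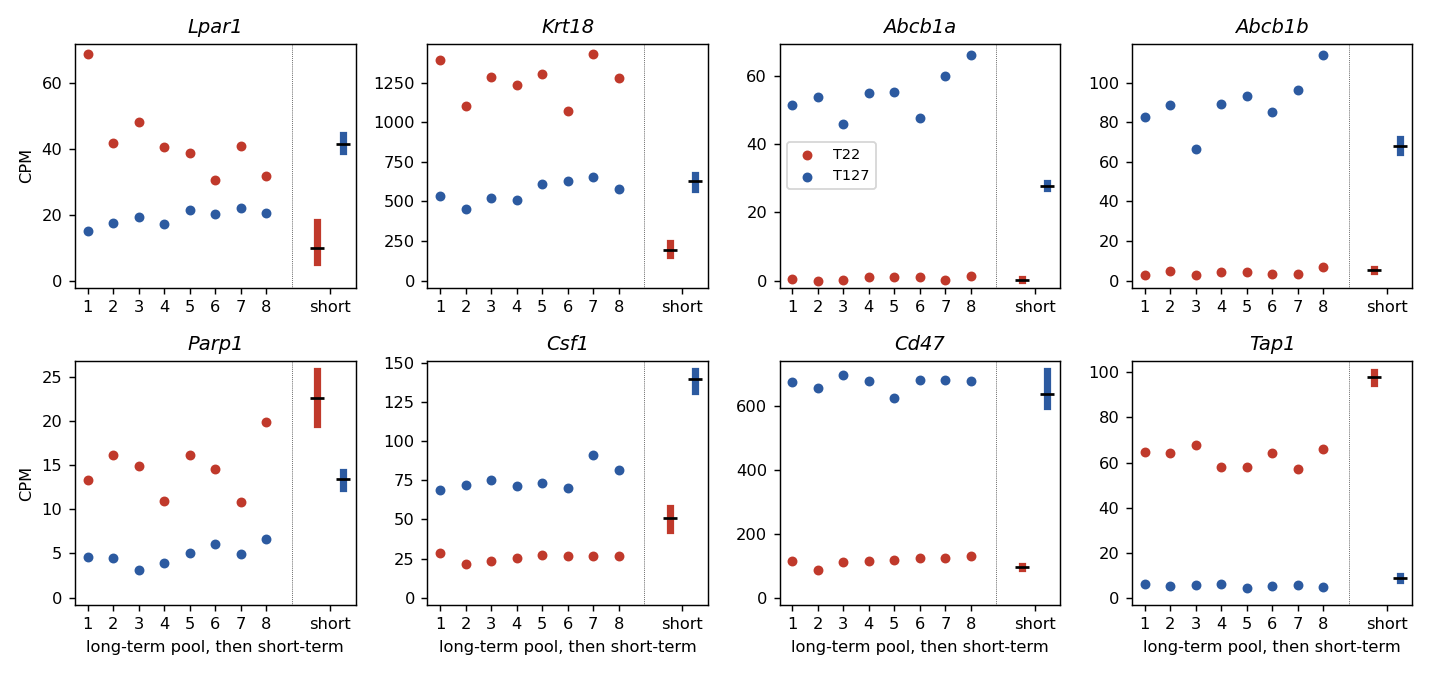
Level in CPM of Lpar1, Krt18, Abcb1a, Abcb1b, Parp1, Csf1, Cd47 and Tap1 in each of the long-term pools 1 to 8 (points, red T22 and blue T127), beside bars that run from the lowest to the highest short-term pool of each model with a black tick at the summed level. Abcb1a, Abcb1b, Cd47 and Tap1 keep the same order in both experiments, while Lpar1 and Krt18 change order.

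Receptor tyrosine kinases and their ligands differed in direction by member. Of 14 receptors tested, 4 were higher in T22 and 7 were higher in T127, and these calls held in all 4 pairs of clusters. Egfr lay at 52.3 to 75.02 CPM in T22 (median 61.8) and 1.19 to 2.92 CPM in T127 (median 2.13), a difference of 4.87 ± 0.0893, Erbb3 gave 7.19 ± 0.239 and Fgfr2 7.99 ± 0.169. In the other direction, Pdgfra lay at 0.390 to 3.52 CPM in T22 (median 1.75) and 125 to 159 CPM in T127 (median 143), a difference of -6.37 ± 0.140, and Fgfr1 at 12.5 to 23.5 CPM in T22 (median 16.2) and 117 to 188 CPM in T127 (median 149), a difference of -3.16 ± 0.0864. Igf1r, Epha2, Axl and Met gave -3.51 ± 0.101, -3.27 ± 0.0881, -2.46 ± 0.0750 and -2.29 ± 0.0585. Erbb2 gave -0.04 ± 0.167, with overlapping pools. Within T22, Fgfr2 lay at 61.6 CPM in Malign_2 and 5.51 CPM in Malign_3.

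Among 12 ligands of these receptors, 6 were higher in each model. The 5 EGF family ligands tested were all higher in T127. Ereg (epiregulin) lay at 0.373 to 10.4 CPM in T22 (median 0.837) and 202 to 329 CPM in T127 (median 243), a difference of -6.77 ± 0.291, and Btc (betacellulin) at 4.50 to 8.72 CPM in T22 (median 7.23) and 149 to 190.1 CPM in T127 (median 174), a difference of -4.60 ± 0.0803. Areg, Hbegf and Tgfa gave -3.17 ± 0.364, -3.90 ± 0.171 and -2.84 ± 0.129. Their receptor Egfr, in contrast, was higher in T22, as given above. Ereg, Areg and Hbegf were higher in Malign_1 (456, 281 and 188 CPM) than in Malign_0 (131, 113 and 61.6 CPM). The PDGF ligands were higher in T22, with Pdgfb at 5.48 ± 0.153, Pdgfc at 6.50 ± 0.176 and Pdgfa at 1.10 ± 0.0513, although the call of Pdgfa was lost in some alternatives. Fgf7, which signals through a splice form of Fgfr2, lay at 55.3 to 90.5 CPM in T22 (median 73.6) and 0.0942 to 1.37 CPM in T127 (median 0.427), a difference of 7.10 ± 0.152, with 122 CPM in Malign_2 and 1.52 CPM in Malign_3. Gas6, the ligand of Axl, was higher in T22 (4.55 ± 0.0542).

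Genes that respond to MAPK signalling were higher in T127 for 8 of 13 tested, and Spry1 alone was higher in T22 (2.48 ± 0.168). The median was -1.53. Fosl1, an AP-1 subunit, lay at 1.45 to 4.86 CPM in T22 (median 2.75) and 134 to 179.7 CPM in T127 (median 151), a difference of -5.79 ± 0.120. Etv4 lay at 0.360 to 0.939 CPM in T22 (median 0.476) and 28.1 to 34.7 CPM in T127 (median 30.3), a difference of -5.83 ± 0.119, and Dusp4, a phosphatase that inactivates MAP kinases, at 0.448 to 1.64 CPM in T22 (median 1.19) and 28.9 to 34.6 CPM in T127 (median 31.8), a difference of -4.78 ± 0.127. All 3 were at most 4.86 CPM in T22 pools. Dusp5, Dusp6, Etv5, Spry4 and Spred1 made up the rest, with differences from -3.16 to -1.15. Phlda1 gave 0.00 ± 0.0303 in the sums per model, with overlapping pools. It lay at 1505 CPM in Malign_1 and 673 CPM in Malign_0, against 971 CPM in Malign_2 and 1052 CPM in Malign_3.

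Wnt and Notch genes also sorted by member. In the Wnt list 8 of 16 genes were higher in T22 and 6 were higher in T127, with a median of 0.58. Without the 5% of cells with the most UMIs the median was 0.12, over the 15 genes still tested. The secreted antagonist Sfrp1 lay at 940.2 to 1231 CPM in T22 (median 1076) and 1.45 to 5.14 CPM in T127 (median 2.67), a difference of 8.50 ± 0.187, and Dkk3 gave 6.85 ± 0.121. The antagonists Dkk2 and Notum, an enzyme that inactivates Wnt proteins, were higher in T127, with Notum at 0.672 to 9.15 CPM in T22 (median 2.28) and 230.3 to 327 CPM in T127 (median 266), a difference of -6.54 ± 0.212, and Dkk2 at -6.76 ± 0.175. Wnt4 and Wnt5b were higher in T22 (4.08 ± 0.127 and 4.04 ± 0.0562), and Wnt5a, Wnt7b and Wnt10a were higher in T127 (-5.75 ± 0.217, -2.20 ± 0.199 and -4.15 ± 0.251). Axin2 and Lef1, which report canonical Wnt output, were too low to be tested, while Tcf7 gave -0.27 ± 0.129 and the receptor Fzd2 0.12 ± 0.0732.

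Of 11 Notch genes, 9 were higher in T22, and the receptors Notch2 and Notch4 were higher in T127 (-2.54 ± 0.102 and -2.38 ± 0.172). The median of 3.00 was 1.71 with equal weight of the clusters. Notch3 lay at 10.2 to 19.2 CPM in T22 (median 12.3) and 0 to 0.428 CPM in T127 (median 0.116), a difference of 6.50 ± 0.253, and the ligand Jag2 at 14.3 to 26.3 CPM in T22 (median 19.6) and 0.0634 to 0.856 CPM in T127 (median 0.246), a difference of 6.14 ± 0.241. Notch1 lay at 115 to 149 CPM in T22 and 32.3 to 48.9 CPM in T127, a difference of 1.74 ± 0.0375. The targets Nrarp, Hey1 and Hes1 differed by 4.47 ± 0.133, 3.42 ± 0.356 and 1.03 ± 0.156, and Hes1 lost its call without pool 5, 6 or 7 (0.956, 0.909 and 0.935) and in pools 1 to 4 (0.548). Hey2 had 3 UMIs in T127 against 112 in T22. The ligands Jag1 and Jag2 were mainly in Malign_2 (99.9 and 33.9 CPM), and Notch3 and Nrarp mainly in Malign_3 (27.8 and 68.9 CPM, against 3.15 and 14.7 CPM in Malign_2).

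Of 8 genes of insulin-like growth factors, 4 were higher in T22 and 2 were higher in T127, with a median of 1.75 that was 0.62 with equal weight of the clusters. Igfbp5 lay at 2524 to 3147 CPM in T22 (median 3037) and 4.47 to 17.9 CPM in T127 (median 7.18), a difference of 8.45 ± 0.238, and Igfbp2 gave 8.77 ± 0.207 and Igfbp3 3.42 ± 0.135. All 3 were found chiefly in Malign_2, with Igfbp5 at 4880.3 CPM there and 60.1 CPM in Malign_3. Igfbp4 was higher in T127, at 38.1 to 75.8 CPM in T22 (median 52.9) and 785 to 1118 CPM in T127 (median 917), a difference of -4.14 ± 0.106. The growth factor Igf2 lay at 8.09 to 22.5 CPM in T22 and 0 to 0.152 CPM in T127, Igfbp7 gave -0.08 ± 0.152, and Igf1 was too low to be tested.

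The 6 oncofetal genes tested split evenly, and their median of 0.24 turned to -1.04 with equal weight of the clusters. Hmga1, Hmga2 and Igf2bp2, an RNA-binding protein of embryonic tissue and a target of Hmga2, were higher in T127 by -4.98 ± 0.186, -6.59 ± 0.217 and -6.41 ± 0.134. The imprinted genes H19, Peg3 and Cdkn1c were higher in T22 by 5.55 ± 0.286, 6.97 ± 0.251 and 5.46 ± 0.254, each at no more than 34.1 CPM in any pool. A further 8 genes of this list were too low to be tested.

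**Figure D4:**
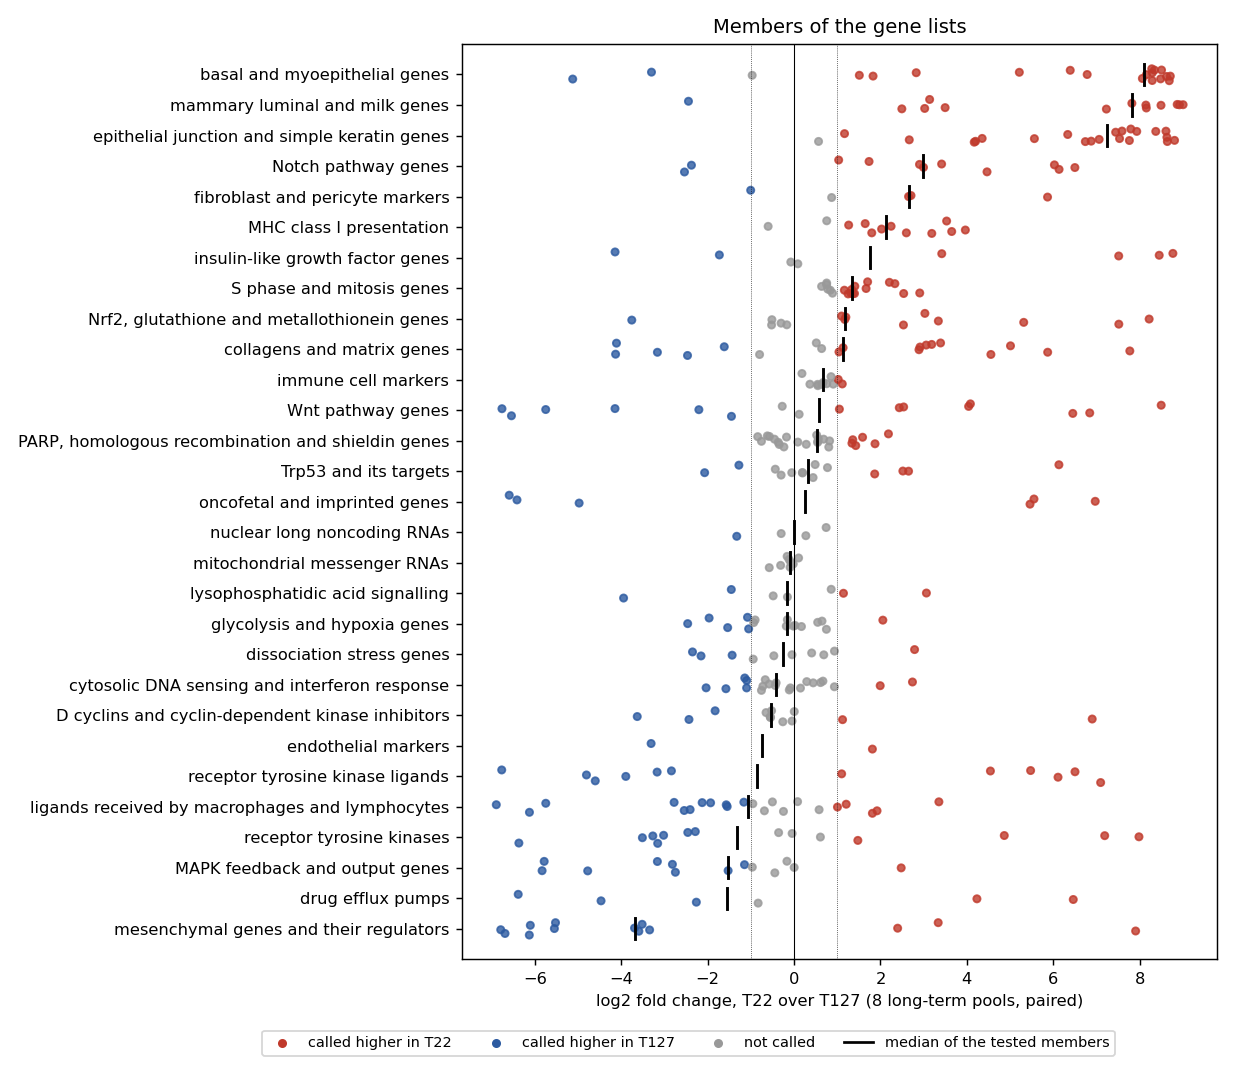
Log2 difference (T22 relative to T127) of every tested member of 29 gene lists, where each point is a gene coloured by its call, the black tick is the median of the list and the dotted lines mark 2-fold. The epithelial, luminal and basal lists have medians of 7.25, 7.82 and 8.11, the mesenchymal list has a median of -3.69, and all 8 mitochondrial messenger RNAs lie inside the dotted lines.

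Transcripts of MHC class I presentation, by which cells show peptides to CD8 T cells, were higher in T22 for 10 of 12 genes, with a median of 2.14. H2-K1, a class I heavy chain, lay at 1876 to 2274 CPM in T22 (median 2140.0) and 185 to 281 CPM in T127 (median 236), a difference of 3.19 ± 0.0572, and B2m, the light chain, at 1313 to 1508 CPM in T22 (median 1376) and 516 to 645 CPM in T127 (median 579), a difference of 1.26 ± 0.0435. H2-K1 and H2-D1 (1.80 ± 0.0538) are similar in sequence and may share reads. The peptide transporter Tap1 lay at 57.3 to 68.0 CPM in T22 (median 64.0) and 4.23 to 6.24 CPM in T127 (median 5.39), a difference of 3.53 ± 0.0667. The immunoproteasome subunits Psmb8 and Psmb9 gave 3.65 ± 0.119 and 3.97 ± 0.106, with Psmb9 at 206 to 265 CPM in T22 and 9.91 to 20.6 CPM in T127, whereas the third subunit Psmb10 gave -0.60 ± 0.0628. Nlrc5, the transactivator of class I genes, was higher in T22 by 2.60 ± 0.286 but at no more than 2.91 CPM. For 7 of the 12 genes the call held in all 4 pairs of clusters. Lymphocytes carry these genes as well, and markers of immune cells, not of lymphocytes alone, were measured in the same sums. Of 11 tested, Nkg7 and Tyrobp were called higher in T22 and none was called higher in T127. All 11 differences were toward T22, with a median of 0.67 and a lowest value of 0.18. The call of Nkg7 was lost without pool 2, 7 or 8 (0.901, 0.905 and 0.923) and in pools 1 to 4 (0.693, adjusted p = 0.105), and that of Tyrobp without pool 5 (0.950) and in pools 1 to 4 (0.613). The list summed to 304 to 584 CPM in T22 and 241 to 345 CPM in T127. Of the defining markers, Ptprc lay at 1.62 to 15.4 CPM in T22 and 1.73 to 6.59 CPM in T127 and Cd3e at 0.540 to 4.68 CPM in T22 and 1.15 to 3.50 CPM in T127. In lymphocytes Tap1 lay at 68.3 CPM and Ptprc at 744 CPM.

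Interferon-response genes did not follow the class I genes. Of 21 genes of cytosolic DNA sensing and interferon response, 2 were higher in T22, 5 were higher in T127 and 14 were not called. The median was -0.42, and 0.23 in pools 5 to 8. Tmem173, which encodes the adaptor STING, lay at 8.84 to 13.6 CPM in T22 (median 10.8) and 2.16 to 3.11 CPM in T127 (median 2.75), a difference of 1.99 ± 0.106, while Cgas, the DNA sensor upstream of it, lay at 0.360 to 1.75 CPM in T22 (median 0.857) and 3.35 to 4.39 CPM in T127 (median 3.68), a difference of -2.04 ± 0.213. Both were low in both models. Ifit1, Ifit3 and Usp18 were higher in T127 (-1.58 ± 0.333, -1.14 ± 0.433 and -1.10 ± 0.261) with overlapping pools, Isg15 gave -0.58 ± 0.236 and Bst2 -0.08 ± 0.135. Cxcl10, a chemokine induced by interferon, was higher in T22, at 30.6 to 100.5 CPM in T22 (median 48.8) and 2.14 to 31.4 CPM in T127 (median 6.92), a difference of 2.74 ± 0.325, although pools overlapped. Of the receptors, Ifngr1 was higher in T127 (-1.10 ± 0.0798) and Ifngr2 gave 0.93 ± 0.0521.

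Ligands read by macrophages and lymphocytes were more often higher in T127. Of 22 tested, 11 were higher in T127, 5 were higher in T22 and 6 were not called, with a median of -1.06. Csf1, the growth factor of macrophages, lay at 21.7 to 28.3 CPM in T22 (median 26.5) and 68.6 to 90.9 CPM in T127 (median 72.4), a difference of -1.55 ± 0.0577 (adjusted p = 1.07e-11). Il34, the other ligand of the same receptor, did not pass the fold limit (-0.25 ± 0.0636, 28.2 to 35.4 CPM in T22 and 34.3 to 41.1 CPM in T127). Cd47, which restrains phagocytosis, lay at 88.0 to 131 CPM in T22 (median 117) and 624 to 695 CPM in T127 (median 676), a difference of -2.54 ± 0.0593, and Tgfb1 at 9.18 to 18.2 CPM in T22 (median 14.6) and 70.6 to 83.7 CPM in T127 (median 77.2), a difference of -2.41 ± 0.0751. No pool of one model reached the other for Csf1, Cd47 or Tgfb1. The neutrophil attractant Cxcl5 and the granulocyte factor Csf3 gave -6.13 ± 0.236 and -5.75 ± 0.293, at no more than 0.469 CPM in any T22 pool. Cd274, the gene of PD-L1, was very low, at 0 to 1.45 CPM in T22 and 0.983 to 3.04 CPM in T127, with a difference of -1.57 ± 0.327.

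Some of these ligands were carried by Malign_1, in which stress-response genes were also high. Cxcl1 lay at 1026 CPM in Malign_1 and 43.9 CPM in Malign_0, Ccl2 at 154 and 27.8 CPM, and Ccl7 at 244 and 48.5 CPM. The monocyte attractant Ccl7 gave a difference of -1.93 ± 0.337 with overlapping pools, and -0.88 in pools 5 to 8, where Malign_1 was less frequent. In the same cells the immediate early gene Junb lay at 6929 CPM, against 741 CPM in Malign_0, and Fos at 6537 against 275 CPM. Of 10 genes of the dissociation stress list, Jun, Junb and Ier2 were higher in T127 and Hspa1a was higher in T22. The list summed to 3699 to 5357 CPM in T22 and 6749 to 15548 CPM in T127. Egr1 gave -0.05 ± 0.200 in the sums per model, but its T127 clusters were not alike. It lay at 1567 CPM in Malign_1 and 107 CPM in Malign_0, against 564 CPM in Malign_2 and 697 CPM in Malign_3. The part of stress during dissociation in these ligands was not tested.

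The ligands that were higher in T22 were Cxcl16 (3.35 ± 0.104), Cx3cl1 (1.92 ± 0.0765), the complement component C3 (1.81 ± 0.1247), Ccl5 (1.21 ± 0.513) and Lgals9 (1.00 ± 0.0762). Cx3cl1, an adhesive chemokine for monocytes, lay at 46.5 to 57.3 CPM in T22 (median 50.1) and 9.84 to 16.5 CPM in T127 (median 13.1). Rps19, a ribosomal protein that the study treats as a ligand of C5ar1, lay at 1455 to 2032 CPM in T22 (median 1788) and 959 to 1395 CPM in T127 (median 1205), a difference of 0.58 ± 0.0220 with no overlap but under 2-fold. Mif gave 0.08 ± 0.0223. Lgals9 (galectin-9) stood at the fold limit and lost its call in some alternatives.

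Genes of S phase and mitosis were higher in T22 for 13 of 19 tested and higher in T127 for none, with a median of 1.33. Of the 19 genes, 4 were higher in each T22 cluster than in either T127 cluster. In the short-term pools, 6 of the 13 called genes were at least 2-fold apart in the same direction, against 83.9% of all called genes. Mki67 lay at 44.2 to 78.2 CPM in T22 (median 56.9) and 6.06 to 15.1 CPM in T127 (median 11.2), a difference of 2.33 ± 0.136, Ccnb1 at 31.5 to 63.1 CPM in T22 (median 40.0) and 5.34 to 10.1 CPM in T127 (median 7.27), a difference of 2.54 ± 0.129, and Ccne2 gave 2.91 ± 0.139. For all 3 the T22 pools lay above the T127 pools. The helicase subunits Mcm2 to Mcm7, which unwind DNA for replication, differed by 0.64 (Mcm7) to 2.21 (Mcm6), and Pcna gave 0.89 ± 0.0430. Without the 5% of cells with the most UMIs the median of the list was 2.31. Mki67 lay at 6.58 CPM in Malign_1 and 14.5 CPM in Malign_0, and at 36.6 CPM in Malign_3 and 71.4 CPM in Malign_2.

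Among D cyclins and inhibitors of cyclin-dependent kinases, Ccnd2 was higher in T22, at 103 to 168 CPM in T22 (median 151) and 0.171 to 2.19 CPM in T127 (median 1.16), a difference of 6.90 ± 0.205. Cdkn2c and Cdkn2b, which inhibit CDK4 and CDK6, were higher in T127 (-3.63 ± 0.0580 and -2.43 ± 0.0759), as was Cdk6 itself (-1.83 ± 0.0947). Rb1, the substrate of these kinases, was higher in T22 (1.12 ± 0.0790). Ccnd1 overlapped between the summed models, at 1112 to 1779 CPM in T22 (median 1303) and 1135 to 1521 CPM in T127 (median 1353), a difference of 0.00 ± 0.0427. The single clusters were not alike. Malign_3 had 2614 CPM and Malign_2 501 CPM, while Malign_0 and Malign_1 had 1514 and 1059.7 CPM. In all, 2 of 12 genes were higher in T22 and 3 were higher in T127.

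Trp53 transcripts were close in both models (131 to 155 CPM in T22 and 110.2 to 132 CPM in T127, a difference of 0.19 ± 0.0329), and its targets did not move together. Of the 14 genes tested, 4 were higher in T22 (Fas 6.13 ± 0.104, Perp 2.65 ± 0.0365, Trp53inp1 2.52 ± 0.0515 and Tigar 1.87 ± 0.118) and 2 were higher in T127 (Phlda3 -2.07 ± 0.0643 and Mdm2 -1.28 ± 0.0629). Fas, a death receptor, lay at 52.8 to 72.0 CPM in T22 (median 60.8) and 0.505 to 1.22 CPM in T127 (median 0.868). Cdkn1a, Bax, Bbc3 and Zmat3 gave -0.55 ± 0.0360, -0.30 ± 0.0276, 0.49 ± 0.0492 and -0.05 ± 0.0766, all under the fold limit.

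Glycolysis genes were left uncalled in a share near that of all genes, and 9 of 14 redox genes were higher in T22. Of 16 genes of glycolysis and hypoxia, 10 were not called, against 6901 of all 11846 genes tested. Aldoa (-0.02 ± 0.0316), Ldha (-0.15 ± 0.0435) and Slc2a1 (0.02 ± 0.0575) were near 0. Hk1, Hk2, Eno1, Bnip3 and Ndrg1 were higher in T127, the largest being Ndrg1 at 12.1 to 29.2 CPM in T22 (median 19.5) and 93.0 to 118 CPM in T127 (median 113), a difference of -2.46 ± 0.112, and the lactate transporter Slc16a3 was higher in T22 (2.06 ± 0.175). Of the 14 genes of Nrf2, glutathione and metallothioneins, 1 was higher in T127 and 4 (Hmox1, Txnrd1, G6pdx and Gstm1) were not called, with a list median of 1.19. The metal-binding protein genes Mt1 and Mt2 gave 3.34 ± 0.138 and 2.53 ± 0.116, with Mt1 at 7954 to 9841 CPM in T22 (median 8413) and 628 to 1165 CPM in T127 (median 842), and the glutathione transferase gene Gsta4 lay at 311 to 380.2 CPM in T22 (median 357) and 6.78 to 13.2 CPM in T127 (median 7.92), a difference of 5.32 ± 0.0992. Gsta3, a paralog of Gsta4 with which reads may be shared, had 3 UMIs in T127. Gpx2, a glutathione peroxidase gene, lay at 12.0 to 24.2 CPM in T22 and 0 to 0.190 CPM in T127, and Hmox1 gave -0.17 ± 0.0787. Srxn1 (sulfiredoxin) was higher in T127, at 2.96 to 6.05 CPM in T22 (median 4.22) and 50.2 to 62.0 CPM in T127 (median 58.7), a difference of -3.76 ± 0.0888.

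Signs of RNA quality differed little between the models, apart from Malat1. None of the 8 mitochondrial messenger RNAs tested was called, with mt-Nd1 at -0.08 ± 0.0328 and mt-Nd5 at -0.02 ± 0.0376. Malat1, a nuclear noncoding RNA, lay at 12002 to 18160.3 CPM in T22 (median 15965) and 33373 to 42976 CPM in T127 (median 38487), a difference of -1.33 ± 0.0467, whereas Neat1 gave -0.30 ± 0.0763 and Kcnq1ot1 0.74 ± 0.0551. Of 5 fibroblast and pericyte markers tested, Cygb, Serpinf1 and Cspg4 were higher in T22, Pi16 was higher in T127 and Mfap5 was not called (0.87, but 1.02 and called without pool 1 and 1.04 without pool 8), and the list summed to 507 to 951 CPM in T22 and 95.9 to 129 CPM in T127. Serpinf1 made up nearly all of it and lay at 1139.8 CPM in Malign_2 and 38.5 CPM in Malign_3, while Mfap5 was at 4.97 and 2.47 CPM against 3645 CPM in inflammatory fibroblasts. Of the 2 endothelial genes tested, Egfl7 was higher in T22 (1.81 ± 0.196) and Plvap was higher in T127 (-3.31 ± 0.312), and neither exceeded 8.82 CPM in any pool. Whether cells of other types contribute to the matrix and mesenchymal genes of T22 was not tested.

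The short-term pools, whose labels give the model, were set beside the long-term values. All Malign_2 and Malign_3 cells counted there were in pools labelled T22 (1954 cells) and all Malign_0 and Malign_1 cells in pools labelled T127 (4878 cells). Each model is there a set of 4 captures whose tumors are not told apart, so no test was made. Doses were the same, but times, mice, pools and the transplantation settings were not. By their labels, only the long-term pools hold co-transplanted tumors beside those of a single strain. Of the 4945 genes called long-term, 4906 (99.2%) had the same sign short-term and 4148 were at least 2-fold apart in the same direction on the scale of log2 (CPM + 1), which was 83.9% of the genes called and 84.2% of the 4928 tested genes at least 2-fold apart short-term. For Hmga2 the short-term pools held 0.0714 to 0.158 CPM in T22 and 2239.7 to 2384 CPM in T127, for Abcb1a 0.145 to 0.318 and 27.1 to 28.6 CPM, and for Epcam 813 to 956 and 0.303 to 2.56 CPM. All 8 of the receptor tyrosine kinase genes Egfr, Erbb3, Fgfr2, Pdgfra, Fgfr1, Met, Igf1r and Axl kept their order, as did Tap1 (95.4 to 100.2 and 7.70 to 9.66 CPM) and Cd47 (91.9 to 99.3 and 599 to 708 CPM).

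Some differences were not the same size in both experiments. Bglap and Bglap2 were high in long-term T127 (medians 104 and 135 CPM) and lower in short-term T127 (5.73 to 9.35 and 9.93 to 19.5 CPM), and Slurp1 had a median of 385 CPM long-term and 26.3 to 41.4 CPM short-term. Lcn2 (lipocalin-2), in contrast, was at 52.4 to 216 CPM in long-term and 2.54 to 4.94 CPM in short-term T127, while in T22 it lay at 833 to 1442 and 885 to 1039.7 CPM. For homologous recombination the short-term values were Parp1 19.6 to 25.6 CPM in T22 and 12.4 to 14.2 CPM in T127, and Brca1 5.79 to 7.72 and 7.69 to 10.4 CPM. Parp1 was thus less than 2-fold apart there. Ccnd1 was at 601 to 791 CPM in T22 and 2219 to 2342 CPM in T127, and Cdk6 at 9.46 to 12.3 and 145 to 157 CPM.

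Only 4 called genes were at least 2-fold apart in the opposite direction short-term. They were Lpar1 (long-term 1.14, short-term -1.95), Krt18 (1.17 and -1.70), Kif26b (1.01 and -1.18) and S100a9 (2.38 and -1.12), the last 2 named after their values were seen. The make-up of the T22 sums differed between the experiments, with Malign_3 at 34.3 to 49.2% of T22 cells long-term and 8.82 to 14.0% short-term. Within Malign_3 the level of Krt18 was 3022 CPM long-term and 1612 CPM short-term, and within Malign_2 it was 87.5 and 37.3 CPM. The T127 clusters Malign_0 and Malign_1 had 597 and 499 CPM long-term and 655 and 597 CPM short-term. Malign_1 was 47.3 to 49.4% of short-term T127 cells. Lpar1 lay at 43.8 CPM in Malign_2 and 43.1 CPM in Malign_3 long-term, against 21.4 CPM in Malign_0 and 15.4 CPM in Malign_1. Short-term it lay at 9.12 and 18.1 CPM in the T22 clusters and 41.6 and 41.2 CPM in the T127 clusters, so that the order was opposite in every pair of clusters. The part of cluster make-up in the order of Krt18 was not tested.

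**Figure D5:**
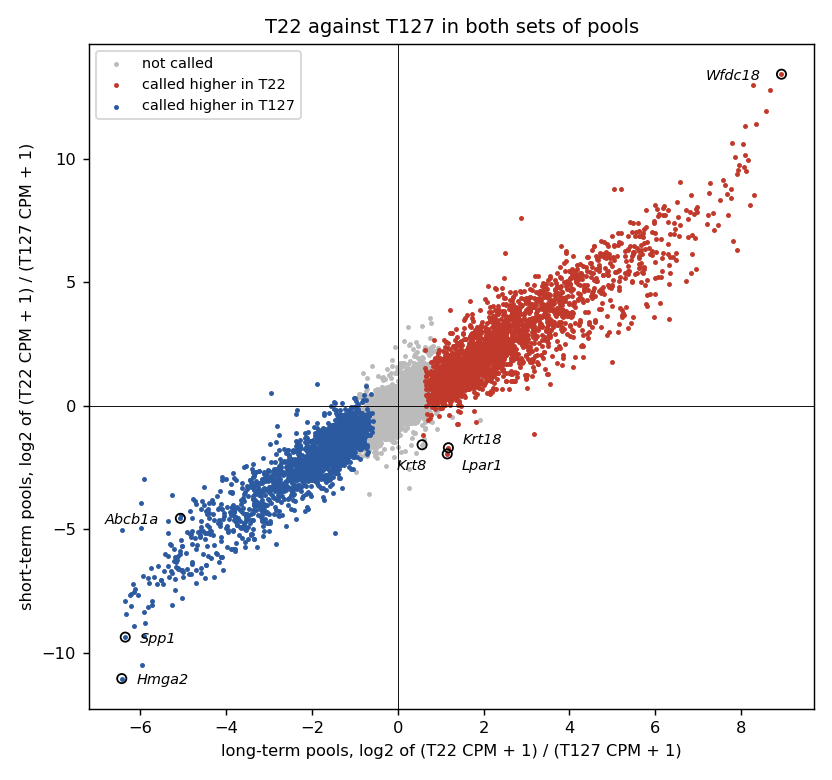
Log2 ratio of (T22 CPM + 1) to (T127 CPM + 1) for every tested gene, with the long-term pools on the horizontal and the short-term pools on the vertical axis, coloured by the long-term call. Most called genes lie in the quadrants of equal sign (4906 of 4945), and the circled genes Lpar1, Krt8 and Krt18 lie in the opposite quadrant.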

How the data were processed

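The deposited files hold raw UMI counts per gene and cell, which the authors made with Cell Ranger 6.0.0 on GRCm38, intronic reads included, from pools of hashtag-labelled 10x 3′ libraries. Cells and cluster names were those of the authors' annotation, made after cells with a high mitochondrial share and doublets found by Scrublet had been removed, and no further doublet caller was run. Long-term pools held 34755906 to 44032925 UMIs over 32285 genes. A second, filtered matrix per sample was not used.

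Counts were summed per pool and model (16 sums) and, separately, per pool and cluster (32 sums). Genes passing edgeR's filterByExpr were scaled by TMM and tested with edgeR 4.0.16 (quasi-likelihood test, R 4.3.3, limma 3.58.1), with Benjamini-Hochberg adjustment over all genes tested. The pool was a block, because a pool number marks a capture that both models share. Across genes, the deviations of both models of a pool from their means correlated with r of 0.151 to 0.376 in the 8 pools, highest within the same pool in 7 of 8. The common biological coefficient of variation between pools was 0.082 with 7 residual degrees of freedom. Alternatives were DESeq2 1.42.0, other scalings, no filter, no block, each pool left out, all copies of shared barcodes, cell filters, equal cluster weights and other call limits. The script was checked on simulated data.

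The models and gene lists were chosen with earlier results of these data known. Named were the 15 largest differences in each direction among genes called in all 4 pairs of clusters and at 50 CPM or more in every pool of the higher model, the 3 largest called members and the member nearest to 0 of each list, genes of the study (Epcam, Cldn1, Krt8, Krt18, Acta2, Dcn, Csf1, Il34, Rps19, Cx3cl1, Ccl7 and Lgals9), and Lpar1, Parp1, Brca1, Brca2, Abcb1a and Abcb1b. Other list members were named after their values had been seen. Predicted genes and Rik symbols were left out of the largest differences. A few list members that the rule names are not reported here.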

Additional observations from a re-analysis of the deposited data

Results flagged for a closer look

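Among the 138 genes named by the fixed rule, the difference of T22 to T127 in a single pool stood apart from the other 7 pools for 10, by Dixon's 95% criterion for the gap as a share of the range over 8 pools. Chance gives about 1 such flag in 20 genes. For Acta2 the gap was 0.583 of the range (pool 8, log2 6.89 against a median pool of 8.79), for Thbs1 0.561 (pool 7, 5.10 against 4.57), for Notch3 0.581 (pool 6, 4.34 against 3.61) and for Perp 0.603 (pool 6, 2.39 against 2.69). Gpx2 had a gap of 0.536 (pool 6, 3.49 against 4.29), Cxcl5 of 0.597 (pool 4, -4.20 against -3.66) and Cdkn2b of 0.560 (pool 1, -1.80 against -2.42). In each of these 7 genes the pool that stood apart kept the direction of the others. Cldn1 had a gap of 0.625 (pool 4, -0.37 against 0.02), Lpar1 of 0.546 (pool 1, 2.12 against 1.03) and Brca2 of 0.553 (pool 7, -0.36 against 0.66). The single pool values were computed on log2 (CPM + 1).

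Of the named genes, 3 were higher in T22 in each of the 8 long-term pools and lower in every short-term T22 pool than in every short-term T127 pool. They were Krt8 (long-term 0.57, short-term -1.57), Krt18 (1.17 and -1.70) and Lpar1 (1.14 and -1.95). Genes whose long-term pools differed in sign among themselves were not counted here. The change between the experiments was not tested, since the tumors of the short-term captures are not told apart.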

How the results depend on the processing

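The counts of 2621 and 2324 genes higher in T22 and in T127 kept within 1.5 times of themselves under other scalings, DESeq2, other choices of cells, pools 1 to 4 and pools 5 to 8 alone and 2 summed sets of pools, with 2446 to 3520 and 2171 to 2985 genes. Without the filter on low counts 4130 genes were higher in T22 and 3238 in T127, of 20679. At any fold the counts were 5176 and 5072, and at 4-fold or more 1561 and 1045. Leaving out each pool in turn gave 2607 to 2696 and 2342 to 2365 genes, and 1637 to 1747 and 1468 to 1515 for genes higher in both clusters of a model. Without the replicate block, that is without pairing the models by pool, 2622 and 2330 genes were called, of which 2611 and 2317 were the same genes. Pools 1 to 4, pools 5 to 8 and the 2 sets of pools were chosen as alternatives after seeing the data.

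Of the 110 named genes that were called, 102 kept their call wherever they were tested in the 21 alternatives other than the call limits. One of these alternatives, a minimum of 1000 genes per cell, left out no cell and could move no value. Hey2 and Cygb were not tested in the fit that gives the clusters equal weight. The exceptions were Pdgfa, Hes1, Tyrobp, Nkg7, Krt18, Ccl7, Lgals9 and Lpar1. With equal weight of the clusters Krt18 turned to -0.0803. The cause was not tested for this or for the list medians below.

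Of the list medians, 566 values moved by less than the spread between pools and 43 by more. Each median was taken over the members tested in that alternative, so some moves also reflect a change of members. The lysophosphatidic acid list, for example, had 5 tested members without the 5% of cells with the most UMIs. Equal weight of the clusters gave 6.71 (epithelial), 6.67 (luminal), 4.91 (basal), -5.13 (mesenchymal), 0.40 (matrix), -0.58 (lysophosphatidic acid), -1.47 (immune ligands), 1.71 (Notch), 0.62 (insulin-like growth factors), -1.04 (oncofetal) and 0.90 (fibroblast). Without the 5% of cells with the most UMIs the medians were 7.84 (basal), 1.33 (matrix), 0.93 (lysophosphatidic acid), 0.12 (Wnt), 2.00 (insulin-like growth factors), 2.31 (S phase), -0.68 (D cyclins) and 1.71 (fibroblast). Pools 5 to 8 gave 7.78 (basal), -4.36 (mesenchymal), 1.32 (matrix), 0.23 (interferon), -1.19 (MAPK), 0.17 (Trp53) and 1.30 (Nrf2), and pools 1 to 4 gave -4.04 (mesenchymal), 1.95 (MHC class I), -0.55 (receptor ligands), -2.06 (MAPK), 1.93 (insulin-like growth factors), -0.26 (glycolysis) and -0.15 (noncoding RNA). Pools 4 to 8, without the pools that share barcodes, gave 7.84 (basal), -4.12 (mesenchymal) and -0.35 (endothelial). Without the filter the medians were -0.64 (D cyclins), -0.27 (glycolysis) and -0.21 (mitochondrial), the 2 sets of pools gave -0.26 (glycolysis) and -0.19 (mitochondrial), and DESeq2 gave 7.51 (epithelial). The epithelial median ranged from 7.12 to 7.58 when single pools were left out. Planned medians per chromosome were not run, because no mouse annotation was used here.

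Depth limits what can be said of genes of a few CPM, such as Brca1 and Brca2. The number of pools does not stand for tumors.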

Other observations

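Mitochondrial transcripts were uneven in these sums. The messenger RNAs mt-Co2, mt-Co3 and mt-Atp6 lay at 1.79 to 4.04, 2.24 to 6.62 and 0.939 to 3.58 CPM in T22 and at 1.82 to 4.00, 4.06 to 9.08 and 1.82 to 3.11 CPM in T127, whereas mt-Nd1 lay at 2957 to 5803 and 3106 to 5698 CPM. The same held in lymphocytes, with 2.50 CPM for mt-Co2 and 3344 CPM for mt-Nd1, and in the short-term pools, with 4.40 and 5924 CPM in T22. A further 5 of the 13 listed mitochondrial messenger RNAs (mt-Nd3, mt-Nd4l, mt-Nd6, mt-Atp8 and mt-Cytb) were too low to be tested. The reads behind these genes were not examined here.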
